A study of Homo sapiens with 12 samples.

Results

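The levels of 10 genes of the FOXO pathway were followed, out of the 62754 gene identifiers in the table. They were the transcription factors FOXO1, FOXO3 and FOXO4, the genes TXNIP, SESN3, IRS2, PIK3IP1, BCL6 and CITED2, which are known FOXO targets in one cell type or another, and DEPP1, a FOXO target that was chosen for its stepwise rise in drug in these same libraries. The other 9 were chosen for the pathway they belong to, with earlier results of these data known. RNA sequencing of polyadenylated RNA was available from 12 cultures of PC9, an EGFR-mutant human lung adenocarcinoma line whose growth depends on EGFR signalling. The cells came from a subclonal PC9 line, so each group stands for 1 lineage. The 4 groups had 3 cultures each, and the 3 cultures of a group started from a shared flask and were then kept apart. Untreated WT cells carried intact TDP1, a gene for a DNA repair enzyme that removes trapped topoisomerase from DNA ends, and received no drug. DTC (drug-tolerant cells) were TDP1 WT cells held in 1 µM erlotinib, an EGFR kinase inhibitor, for 7 days. DTEC (drug-tolerant expanded cells) were TDP1 WT cells held in 1 µM erlotinib for 28 days. KO cells belonged to 1 TDP1 knockout line, KO2, and were sampled without drug, so there was no knockout culture in erlotinib. All 12 libraries carried the same batch label.

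FOXO proteins are forkhead transcription factors that sit downstream of growth factor receptors. When receptors such as EGFR or the insulin receptor activate PI3K and AKT, AKT phosphorylates FOXO proteins, 14-3-3 proteins hold them in the cytoplasm, and their targets are switched down; when the pathway is blocked, FOXO proteins enter the nucleus. Their targets include inhibitors of the cell cycle, pro-apoptotic and autophagy genes, stress enzymes, and components that feed back on receptor signalling, such as IRS2 and PIK3IP1. RNA levels report neither the location nor the phosphorylation of the FOXO proteins themselves.

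Library totals ran from 25572691 to 38373679 estimated counts, and all 10 genes were among the 17115 with enough counts to be tested. Levels are in CPM, estimated counts adjusted for library size, and a gene is called changed at an adjusted p under 0.05 in edgeR's quasi-likelihood test with Benjamini-Hochberg adjustment over the 17115 genes. These p-values measure the spread between cultures split from a common flask. TDP1 itself averaged 10.8 ± 0.648 CPM (SD, n = 3) in KO against 26.3 ± 1.60 CPM (SD, n = 3) in untreated WT, a log2 fold change of -1.29 (edgeR adjusted p 1.31e-05). In the TDP1 WT cells in drug it averaged 14 ± 1.55 CPM in DTC and 26.6 ± 1.54 CPM in DTEC (SD, n = 3). Epithelial markers (EPCAM, CDH1, KRT7, KRT8, KRT18 and KRT19) summed to between 6293 and 12314 CPM in the 12 libraries, lowest in DTC at 6293 to 7277 CPM against 10794 to 11392 CPM in untreated WT. Of these 6 genes, 4 were called lower in DTC. CDH1 (285 CPM in untreated WT and 298 CPM in DTC) and KRT7 (1965 and 2071 CPM) were not. The 3 leukocyte markers summed to at most 0.997 CPM, and the fibroblast genes COL1A2 and DCN never had more than 3 counts. Other markers were present and moved with the groups. The 4 fibroblast markers, almost all COL1A1, had summed levels of 7.99 to 8.91, 54.4 to 57.1, 11.1 to 14.1 and 13.4 to 15.1 CPM in untreated WT, DTC, DTEC and KO respectively. The 3 endothelial markers, mostly PECAM1 and CDH5, summed to 58.5 to 61.4, 41.9 to 49.5, 122 to 142 and 75.7 to 77.2 CPM in that order, and the 3 alveolar markers, to 1.21 to 2.33, 1.39 to 2.46, 12.3 to 17.5 (mostly SFTPB) and 5.51 to 7.54 CPM. The part of these markers in the results below was not tested. In such bulk libraries, fewer cells with a transcript and less of it per cell cannot be told apart.

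Much of the transcriptome differed in drug, so counts of pathway genes are set beside the share of all genes called. No untreated group is labelled as kept for 7 or 28 days, so drug and time in culture cannot be told apart. At 7 days, 34% of the tested genes were called higher and 33.3% lower than in untreated WT. Of the 9 genes other than DEPP1, 4 were called higher (FOXO1, FOXO4, PIK3IP1 and CITED2), 2 lower (FOXO3 and IRS2) and 3 neither (TXNIP, SESN3 and BCL6), with a median log2 fold change of 0.60 against 0.06 over all tested genes. At 28 days, 26% of the tested genes were higher and 26.3% lower than in untreated WT, while 7 of the 9 genes were called higher, 0 lower and 2 neither, with a median of 1.16 against 0.02. From 7 to 28 days, 28.8% of the tested genes were higher and 26.6% lower, and 5 of the 9 genes were called higher (FOXO3, FOXO4, TXNIP, IRS2 and BCL6) and 1 lower (CITED2), with a median of 0.73 against -0.01. These 3 comparisons share libraries, so they are not independent of each other. The split of calls moved with the scaling: 50.5% of the calls at 7 days were higher with TMM scaling, 68.4% with library totals alone and 65% with upper-quartile scaling. At 28 days the share was 49.7% with TMM and 63.7% with library totals, and from 7 to 28 days it was 51.9% with TMM, 37.4% with library totals and 38.7% with upper-quartile scaling. The 2 scalings raised the median log2 fold change of all genes at 7 days by 0.355 and 0.288, raised it by 0.168 and 0.114 at 28 days, and moved it by -0.187 and -0.174 between the times.

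Among the DTC libraries, replicate 1 stood apart from the other two over the transcriptome, at 32.7 on the third principal component against -14.0 and -11.9. Untreated WT replicate 1 lay on the same side, at 42.4 against 10.2 and 13.6 in its group. Replicate 1 was also highest within DTEC (11.6 against 0.1 and -15.8) and within KO (-16.6 against -29.9 and -22.3). DTC replicate 1 was high for FOXO1, FOXO3, FOXO4 and TXNIP, and among the other pathway genes it was low for ULK1 (119 against 180 and 174 CPM), TXN (234 against 537 and 360 CPM) and GPX1, a glutathione peroxidase (60.8 against 159 and 153 CPM). Without it the 7-day log2 fold changes were 0.52 for FOXO1, -0.77 for FOXO3, 1.17 for FOXO4 and 0.11 for TXNIP, against 0.84, -0.51, 1.3 and 0.24 with it, and no call among the 4 changed.

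**Figure D1:**
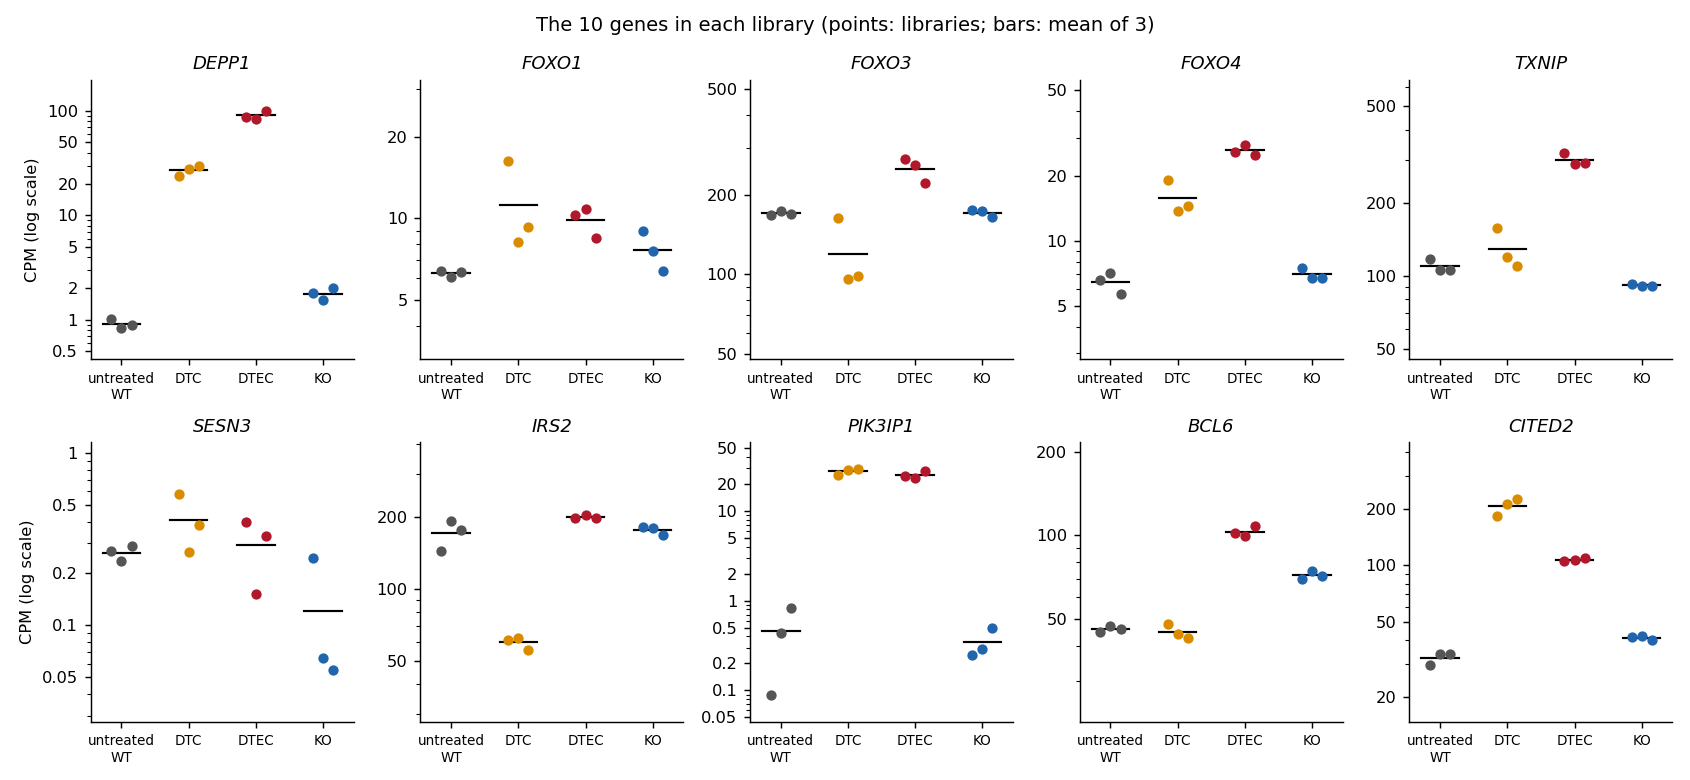
Levels of the 10 genes in each of the 12 libraries, in CPM on a log axis; points are single libraries and bars are means of 3. DEPP1 and FOXO4 stood higher in every DTEC library than in any DTC library and higher in every DTC library than in any untreated WT library, whereas IRS2 was low in the 3 DTC libraries only, and PIK3IP1 was near 0 without drug and at 23.1 to 29 CPM in all 6 drug libraries.

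FOXO3, the factor with the most transcript, was lower at 7 days and higher at 28 days than without drug. FOXO3 (ENSG00000118689, chr6:108559835-108684774, plus strand, GRCh38) stood at 168, 173 and 169 CPM in the untreated WT libraries, at 163, 95.8 and 98.8 CPM in DTC, and at 272, 258 and 222 CPM in DTEC. DTC replicate 1 lay just under the untreated WT libraries while the other two DTC libraries were far below them, and the 3 DTEC libraries were above all others. The log2 fold change was -0.51 (SE 0.163, edgeR adjusted p 0.0122) at 7 days and 0.56 (SE 0.163, edgeR adjusted p 0.00994) at 28 days. The change from 7 to 28 days was 1.08 (95% interval 0.72 to 1.43, edgeR adjusted p 8.16e-05). The fall at 7 days was small and lost its call without DTC replicate 2 (edgeR adjusted p 0.101) or without DTC replicate 3 (edgeR adjusted p 0.106), and with library totals in place of TMM it was -0.16 (edgeR adjusted p 0.396). None of FOXO3's 12 values was a whole number, which arises where reads are shared among features. Its near-identical copy FOXO3B stood at 19.1, 10.6 and 12.5 CPM in untreated WT, DTC and DTEC. Adding both together, an alternative chosen after the data had been seen, gave -0.50 (edgeR adjusted p 0.0172) at 7 days and 0.50 (edgeR adjusted p 0.0227) at 28 days.

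FOXO4, a smaller family member on the X chromosome, rose at both times. FOXO4 (ENSG00000184481, chrX:71096197-71103535, plus strand) stood at 6.57, 7.11 and 5.65 CPM in untreated WT, at 19.1, 13.8 and 14.5 CPM in DTC, and at 25.9, 28.0 and 25 CPM in DTEC. The groups did not overlap, and each DTEC library lay above each DTC library. The log2 fold change was 1.3 (SE 0.139, edgeR adjusted p 1.32e-06) at 7 days and 2.03 (SE 0.139, edgeR adjusted p 6.3e-08) at 28 days, with 0.73 (95% interval 0.45 to 1.02, edgeR adjusted p 0.000319) between the times.

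FOXO1, the family member best known from insulin action in liver, rose less. FOXO1 (ENSG00000150907, chr13:40469953-40666597, minus strand) stood at 6.39, 6.04 and 6.35 CPM in untreated WT, at 16.2, 8.18 and 9.29 CPM in DTC, and at 10.3, 10.8 and 8.44 CPM in DTEC. DTC replicate 1 was again the library apart, well above the other two. The log2 fold change was 0.84 (SE 0.22, edgeR adjusted p 0.00376) at 7 days and 0.65 (edgeR adjusted p 0.0223) at 28 days. At 28 days the call was lost without untreated WT replicate 2 or 3, or without DTEC replicate 1 or 2, with an edgeR adjusted p of 0.0532 to 0.0723. DTEC and DTC did not differ detectably (-0.18, 95% interval -0.65 to 0.28).

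Per kilobase of exon, the scale on which genes can be compared, the makeup of the FOXO transcripts shifted. FOXO3 held 87.1% ± 0.726 (SD, n = 3) of the summed FOXO1, FOXO3, FOXO4 and FOXO6 level in untreated WT, 66.9% ± 3.08 (SD, n = 3) in DTC, 76.2% ± 1.65 (SD, n = 3) in DTEC and 84.9% ± 0.463 (SD, n = 3) in KO. FOXO4's share was 7.39% ± 0.708, 20.4% ± 1.56, 18.0% ± 1.19 and 7.77% ± 0.326 (SD, n = 3) in the same order. The sum was 24.9 to 25.9 CPM per kb in the untreated WT libraries and 38.3 to 45.2 CPM per kb in DTEC. In DTC it was 29.9 CPM per kb in replicate 1 but 18.9 and 19.8 CPM per kb in replicates 2 and 3, so the DTC libraries lay on both sides of untreated WT. FOXO6, a member known mainly from brain, was scarce at 0.941, 2.52 and 2.12 CPM in untreated WT, DTC and DTEC, and was called higher at 7 days (1.43, edgeR adjusted p 0.000355) and at 28 days (1.18, edgeR adjusted p 0.00257).

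**Figure D2:**
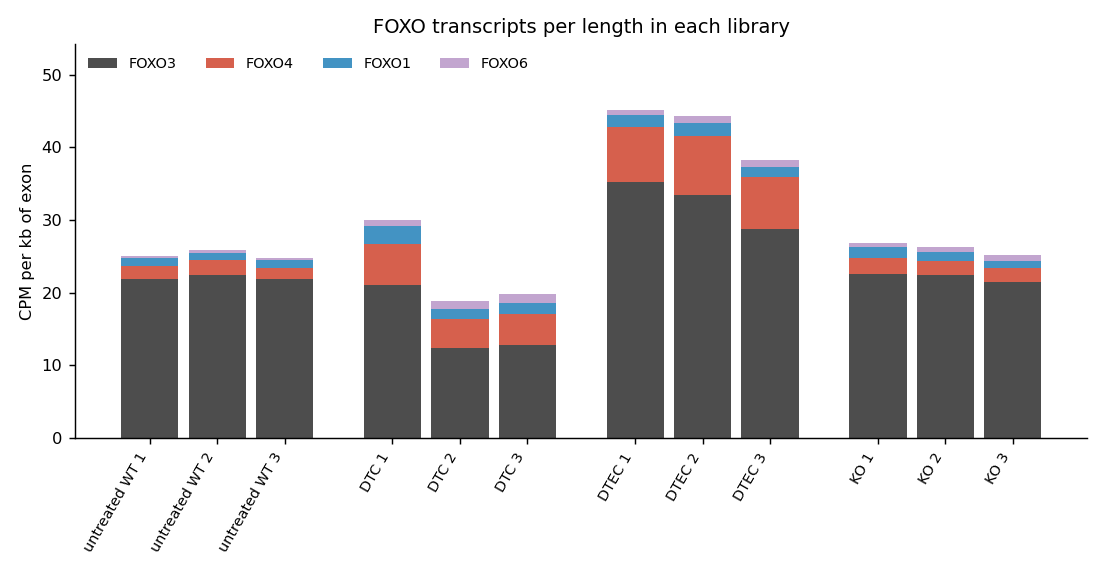
Stacked levels of the 4 FOXO transcripts in each library, in CPM per kilobase of exon, so that the height of a bar is their sum. FOXO3 made up most of every bar, the FOXO4 layer was thicker in the 6 drug libraries, and DTC replicate 1 reached 29.9 CPM per kb against 18.9 and 19.8 CPM per kb in the other two DTC libraries.

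DEPP1 (ENSG00000165507, chr10:44970981-44978810, minus strand) encodes a small protein that was named for its decidual induction by progesterone and is known as a FOXO target linked to autophagy and peroxisomes. It stood at 1.02, 0.843 and 0.894 CPM in untreated WT (25 to 34 counts), at 23.9, 28.1 and 29.8 CPM in DTC, and at 88.1, 83.9 and 99.5 CPM in DTEC. The spread inside each group was small next to these steps, and no group overlapped another. The group means were 0.918 ± 0.0887, 27.3 ± 3.01 and 90.5 ± 8.06 CPM (SD, n = 3), which made DTC 29.7 times and DTEC 98.6 times untreated WT, and DTEC 3.32 times DTC. The gene was selected on this pattern, so no test is attached to it. Per kilobase of exon, DEPP1 went from 0.308 CPM per kb in untreated WT, under each of FOXO1, FOXO3 and FOXO4, to 30.4 CPM per kb in DTEC, close to FOXO3 at 32.5 CPM per kb. RASSF4 overlaps the span of DEPP1, and the strand setting of the counting is not given in the sources used here. RASSF4 stood at 1.61, 9.02 and 3.33 CPM in untreated WT, DTC and DTEC, highest at 7 days, where DEPP1 was at its middle level.

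Among 9792 genes with a mean of at least 10 CPM, 6 had the pattern most like DEPP1 by Pearson correlation of log2 CPM over the 12 libraries. They were CCNG2 (r 0.994), a cyclin that restrains the cell cycle and is itself a known FOXO target, ACSF2 (0.993), an acyl-CoA synthetase, TMC4 (0.99), a channel-like membrane protein, the antisense RNA gene IGFL2-AS1 (0.989), CPAMD8 (0.989) and BBS2 (0.989), a subunit of a complex that serves cilia. The 12 points of each correlation fall into the same 4 groups and share their libraries, so it describes likeness of pattern only. All 6 had smaller steps than DEPP1: CCNG2 stood at 7.39, 33.8 and 51.8 CPM, ACSF2 at 44.8, 97.8 and 141 CPM and BBS2 at 23.3, 44.4 and 56.5 CPM in untreated WT, DTC and DTEC. Of the other genes followed here, FOXO4 (0.98) and PIK3IP1 (0.94) were closest to DEPP1 by the same measure, CITED2 (0.85) and TXNIP (0.83) came next, and FOXO3 (0.19) and IRS2 (-0.26) were far from it.

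**Figure D3:**
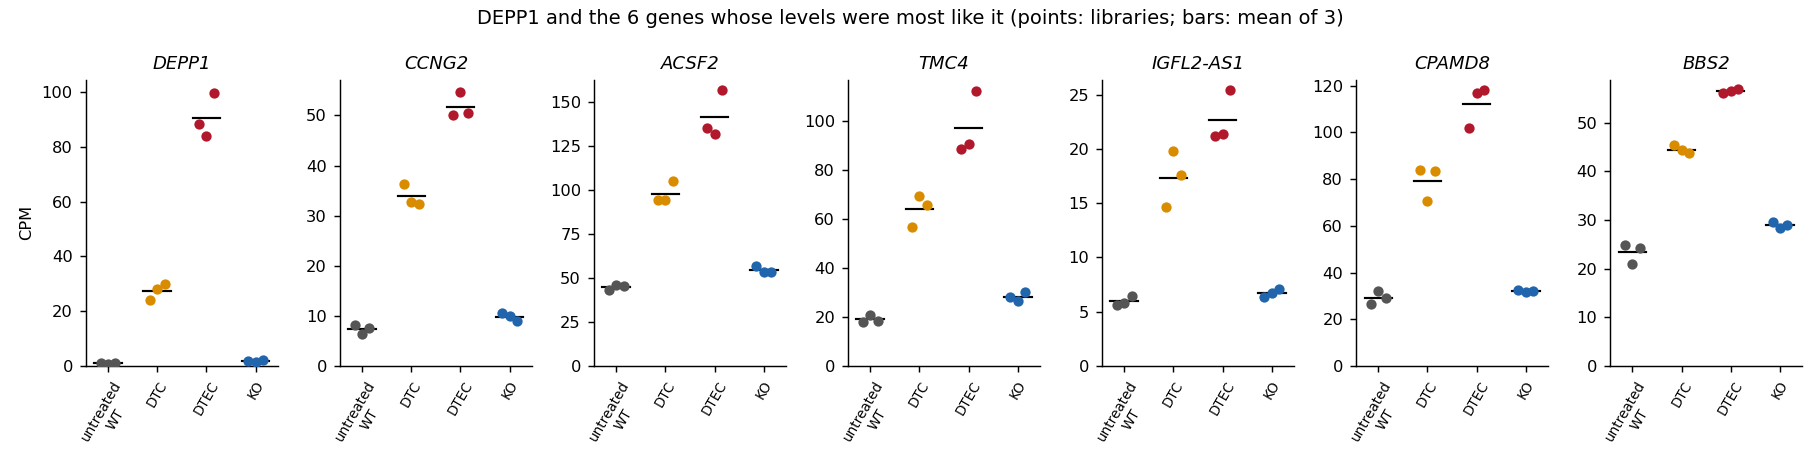
DEPP1 and the 6 genes with the most similar pattern, in CPM on linear axes that start at 0; points are libraries and bars are means of 3. In each panel the 3 DTEC libraries were highest and the 3 DTC libraries next, with DEPP1 nearest to 0 without drug at 0.843 to 1.02 CPM.

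FOXO proteins bind forkhead elements, of which GTAAACA is the core form, so the RefSeq promoter windows (GRCh38.p14, 250 bases before to 50 after each start) of these genes were searched for it on both strands. It was present in 4 of the 10 genes (4 of their 18 windows), against 3.42% of the 35116 windows and 4.19% of the 27305 genes in the RefSeq table. In the larger set of other FOXO targets described below it was present in 3 of the 41 genes with a window (7.32%). The 4 genes were DEPP1, TXNIP, FOXO4 and PIK3IP1, and their 25-base sites are printed 5′ to 3′ on the gene's strand with the element, or its reverse complement in PIK3IP1, in capitals. The DEPP1 site is chr10:44978974-44978998, first element base 180 bases before the start. The TXNIP site is chr1:145996688-145996712, 124 before the start. The FOXO4 site is chrX:71095865-71095889, at base 24 after the RefSeq start, which lies upstream of the gene start in GENCODE 29. The PIK3IP1 site is chr22:31292457-31292481, at base 17 after the second RefSeq start.
DEPP1: ccctgcagcGTAAACAttccccagc
TXNIP: gggctcctgGTAAACAaggaccggg
FOXO4: cggcgagtgGTAAACAgagacgtca
PIK3IP1: aagagaggcTGTTTACcagaacagc
For DEPP1 and TXNIP, whose elements lie upstream, the 250 bases before the start are shown as well, both on the minus strand: chr10:44978810-44979059 for DEPP1 and chr1:145996580-145996829 for TXNIP, with the element in capitals.
DEPP1 upstream: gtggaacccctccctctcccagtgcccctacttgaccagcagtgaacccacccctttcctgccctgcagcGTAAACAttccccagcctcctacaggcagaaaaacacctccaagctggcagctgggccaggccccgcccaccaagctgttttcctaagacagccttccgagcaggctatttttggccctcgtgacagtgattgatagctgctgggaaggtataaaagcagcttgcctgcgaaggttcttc
TXNIP upstream: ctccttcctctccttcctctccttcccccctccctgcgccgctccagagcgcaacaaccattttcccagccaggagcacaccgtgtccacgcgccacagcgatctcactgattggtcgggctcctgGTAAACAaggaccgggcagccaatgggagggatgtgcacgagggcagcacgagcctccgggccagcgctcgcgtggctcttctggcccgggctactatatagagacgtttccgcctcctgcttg
The related element CAAAACA was found only in the IRS2 window among the 10 genes, and 4.92% of all windows hold it. These are matches of letters and carry no measure of binding in PC9 cells. The remaining genes, FOXO1, FOXO3, SESN3, BCL6 and CITED2, had neither element in their windows.

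PIK3IP1 and IRS2 act upstream of FOXO, on opposite sides: PIK3IP1 is a membrane protein that inhibits PI3K, and IRS2 is the adaptor that links insulin and IGF receptors to PI3K. PIK3IP1 (ENSG00000100100, chr22:31281593-31292534, minus strand) stood at 0.0896, 0.438 and 0.836 CPM in untreated WT, which was 3, 13 and 29 counts, and at 25.2, 28.8 and 29 CPM in DTC and 24.6, 23.1 and 28.2 CPM in DTEC. It was thus nearly silent without drug and at one level at both times in drug. The log2 fold change was 5.90 (SE 0.344, edgeR adjusted p 6.6e-09) at 7 days and 5.77 (SE 0.343, edgeR adjusted p 3.68e-08) at 28 days, the largest among the 9 genes tested in drug. With 1 library left out this change ran from 5.438 to 6.762 at 7 days and from 5.298 to 6.624 at 28 days. Both highest values came without untreated WT replicate 3. Between DTEC and DTC the value was -0.13 (95% interval -0.64 to 0.38, edgeR adjusted p 0.667).

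IRS2 (ENSG00000185950, chr13:109752698-109786568, minus strand) stood at 144, 192 and 176 CPM in untreated WT, at 61.4, 62.3 and 55.9 CPM in DTC, and at 197, 204 and 197 CPM in DTEC. The DTC libraries lay far below every other library, and the DTEC libraries just above the untreated WT ones. IRS2 fell by 1.51 on the log2 scale at 7 days (SE 0.107, edgeR adjusted p 2.15e-08) and rose by 1.73 from 7 to 28 days (SE 0.108, edgeR adjusted p 1.63e-08). At 28 days the difference from untreated WT was 0.22 (95% interval 0.00 to 0.45, edgeR adjusted p 0.0859). It passed without untreated WT replicate 2 (0.33, edgeR adjusted p 0.0335), with DESeq2 and with both other scalings. None of its 12 values was a whole number, and the features that share its reads are not known here. Its paralog IRS1 went the same way, from 101 to 26.7 to 89.7 CPM, with a log2 fold change of -1.92 (edgeR adjusted p 3.88e-08) at 7 days and 1.75 (edgeR adjusted p 2.61e-07) from 7 to 28 days.

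TXNIP and SESN3 belong to the stress arm of the pathway. TXNIP (ENSG00000265972, chr1:145992435-145996600, minus strand) encodes the protein that binds thioredoxin and limits glucose uptake. It stood at 117, 106 and 106 CPM in untreated WT, at 157, 120 and 110 CPM in DTC, and at 322, 290 and 292 CPM in DTEC. DTC overlapped untreated WT, and DTEC was clear of both. The log2 fold change was 0.24 (95% interval -0.02 to 0.49, edgeR adjusted p 0.0924) at 7 days, 1.46 (SE 0.121, edgeR adjusted p 3.19e-07) at 28 days, and 1.22 (edgeR adjusted p 1.32e-06) between the times. The 7-day value passed the threshold without DTC replicate 2 (0.35, edgeR adjusted p 0.0298), without DTC replicate 3 (0.39, edgeR adjusted p 0.0168) and with library totals (0.59, edgeR adjusted p 0.000443).

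Thioredoxin itself, TXN, the partner of TXNIP, was at 448, 377 and 242 CPM in untreated WT, DTC and DTEC and was called lower at 28 days (-0.89, edgeR adjusted p 0.003). TXNIP is also a target of the glucose sensor MondoA (MLXIP). That system and the thioredoxin pair were followed in 6 genes (MLXIP, MLXIPL, MLX, TXN, TXN2 and ARRDC4). Of these, 0 were called higher and 3 lower at 7 days, and 1 was called higher and 1 lower at 28 days. Over all tested genes the shares were 34% higher and 33.3% lower at 7 days, and 26% and 26.3% at 28 days. The 3 lower calls at 7 days (MLX -0.48, MLXIP -0.33 and ARRDC4 -0.32) were lost with library totals alone, where MLXIP and ARRDC4 turned to 0.02 and 0.04. MLXIP also lost its call without untreated WT replicate 2 or 3 or DTC replicate 2 or 3 (edgeR adjusted p 0.0625 to 0.174), and ARRDC4 without untreated WT replicate 1 or 3 or DTC replicate 2 or 3 (0.0988 to 0.23). Among the arrestin-domain relatives of TXNIP, ARRDC3 was called higher at both times (19.0, 36.8 and 36.8 CPM, log2 fold change 0.96 with edgeR adjusted p 1.06e-05 and 0.95 with edgeR adjusted p 2.29e-05). ARRDC2 was called lower at 7 days (-0.35, edgeR adjusted p 0.0146), a value that was 0.01 with library totals and missed the threshold without untreated WT replicate 2 or 3 or DTC replicate 3 (edgeR adjusted p 0.0502 to 0.0744). It was called lower at 28 days as well (-0.30, edgeR adjusted p 0.0373), and not without untreated WT replicate 2 or 3 or any 1 DTEC library (0.0761 to 0.136).

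SESN3 (ENSG00000149212, chr11:95165513-95232541, minus strand), a sestrin that restrains mTORC1 and a FOXO target in other cells, was barely expressed, with 2 to 17 counts in a library. It stood at 0.269, 0.236 and 0.288 CPM in untreated WT, at 0.575, 0.265 and 0.381 CPM in DTC, and at 0.396, 0.153 and 0.33 CPM in DTEC. The groups overlapped. Its log2 fold change was 0.60 (95% interval -0.58 to 1.78) at 7 days and 0.17 (95% interval -1.05 to 1.38) at 28 days, so a change of up to 2-fold in either direction was not detectable at this depth at 28 days. The other sestrins had more transcript. SESN1 stood at 8.16, 9.35 and 9.06 CPM in untreated WT, DTC and DTEC and was not called at 7 days (0.20, 95% interval -0.05 to 0.45, edgeR adjusted p 0.152) or 28 days (0.15, 95% interval -0.10 to 0.40, edgeR adjusted p 0.294). With library totals SESN1 passed the threshold at both times (0.55 and 0.32), and with upper-quartile scaling at 7 days (0.485), beside the upward shift of all genes under these scalings. SESN2 stood at 12.7, 14.1 and 45.2 CPM and was called higher at 28 days (1.83, edgeR adjusted p 8.96e-06) but not at 7 days (0.15, edgeR adjusted p 0.551); its change between the times was 1.68 (edgeR adjusted p 1.62e-05).

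BCL6 and CITED2 are transcriptional regulators among the targets. BCL6 (ENSG00000113916, chr3:187721377-187745727, minus strand), a repressor known from germinal centre B cells, stood at 45.1, 47.1 and 46.0 CPM in untreated WT, at 48.2, 44.3 and 42.8 CPM in DTC, and at 102, 99.7 and 108 CPM in DTEC. DTC and untreated WT overlapped, and DTEC lay above both. The log2 fold change was 1.16 (SE 0.0864, edgeR adjusted p 1.28e-07) at 28 days and 1.19 (edgeR adjusted p 7.21e-08) between the times. The 7-day value of -0.03 (edgeR adjusted p 0.762) turned to 0.32 with library totals (edgeR adjusted p 0.00361) and 0.26 with upper-quartile scaling (edgeR adjusted p 0.012), the scalings that lift all genes on average as given above.

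CITED2 (ENSG00000164442, chr6:139371807-139374620, minus strand), a co-regulator that competes with HIF1A for CBP and p300, was highest at 7 days. It stood at 29.5, 33.7 and 33.8 CPM in untreated WT, at 183, 211 and 225 CPM in DTC, and at 106, 107 and 109 CPM in DTEC. The 3 groups were far apart, with DTEC between the other two. CITED2 rose by 2.67 at 7 days (SE 0.103, edgeR adjusted p 1.08e-10) and by 1.73 at 28 days (SE 0.0999, edgeR adjusted p 1.4e-08) on the log2 scale, and fell by 0.94 from 7 to 28 days (edgeR adjusted p 2.08e-06). Per kilobase of exon it was the most abundant of the 10 genes in DTC, at 81.3 CPM per kb, and second to TXNIP (83.1 CPM per kb) in DTEC, at 42.4 CPM per kb.

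**Figure D4:**
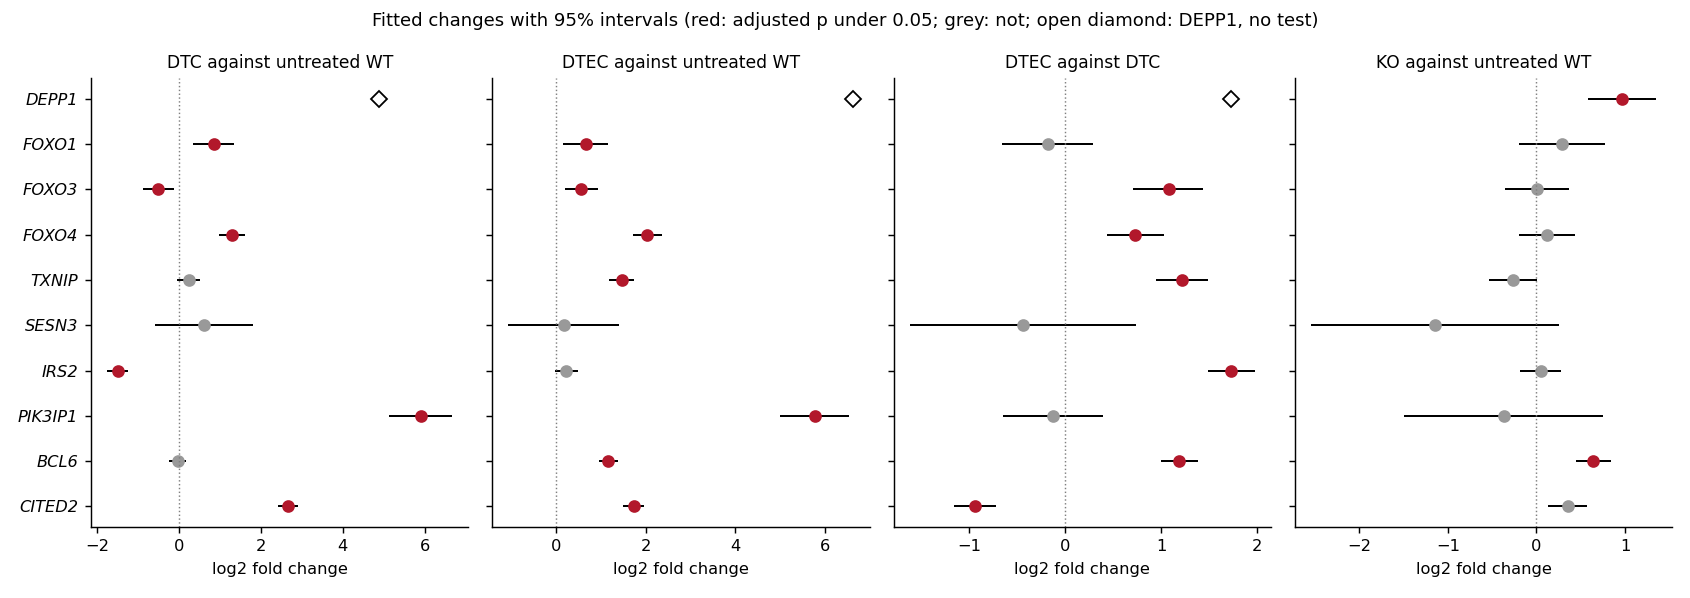
Fitted log2 fold changes of the 10 genes in the 4 comparisons with 95% intervals; red points were called at an adjusted p under 0.05, grey points were not, and the open diamonds give DEPP1, selected on its drug values, without an interval. IRS2 lay left of 0 at 7 days (-1.51) and right of 0 from 7 to 28 days (1.73), and CITED2 the other way round (2.67 and -0.94).

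A larger set of 53 other FOXO targets, written down from general knowledge of the pathway, gave the surroundings of these genes. Like the other lists here, it was chosen with earlier results of these data known. Of the 47 with enough counts, 26 were called higher and 9 lower at 7 days (median log2 fold change 0.57 against 0.06 over all genes), and 27 higher and 4 lower at 28 days (0.48 against 0.02). From 7 to 28 days 21 were called higher and 17 lower (0.14 against -0.01). Over all tested genes the shares called higher and lower were 34% and 33.3% at 7 days, 26% and 26.3% at 28 days, and 28.8% and 26.6% between the times. The counts of the groups below are read beside these shares. Neither the set nor its groups were split by whether FOXO proteins raise or lower a gene.

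The autophagy and muscle-atrophy group was highest at 7 days. Of its 10 genes, 9 were called higher and 0 lower at 7 days (median 1.77), 6 were higher and 0 lower at 28 days (median 0.60), and from 7 to 28 days 0 were higher and 9 lower (median -0.87). GABARAPL1, a protein of the autophagosome membrane, stood at 18.0, 16.3 and 15.7 CPM in untreated WT, at 307, 256 and 245 CPM in DTC, and at 89.4, 66.8 and 51.5 CPM in DTEC, with a log2 fold change of 4.01 (SE 0.181, edgeR adjusted p 3.74e-10) at 7 days and -1.96 (edgeR adjusted p 3.2e-07) from 7 to 28 days. FBXO32, the muscle-atrophy ubiquitin ligase subunit, had means of 21.8, 135 and 65.7 CPM, and ULK1, the kinase that starts autophagy, of 30.7, 158 and 54.5 CPM. All 3 kept their drug libraries clear of the untreated WT ones, and all 3 were called higher at both times.

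The metabolism and receptor-feedback group was highest at 28 days. Of its 10 tested genes, 4 were called higher and 4 lower at 7 days (median 0.07), near the shares over all genes, 7 higher and 0 lower at 28 days (median 0.97), and 9 higher and 0 lower from 7 to 28 days (median 1.2). ERBB3, a receptor that couples to PI3K, stood at 67.8, 76.2 and 73.3 CPM in untreated WT, at 131, 99.8 and 102 CPM in DTC and at 279, 273 and 273 CPM in DTEC. Its log2 fold change was 0.61 (edgeR adjusted p 0.000151) at 7 days and 1.93 (SE 0.11, edgeR adjusted p 1.23e-08) at 28 days. INSR, the insulin receptor, had means of 8.36, 14.7 and 26.7 CPM. TRIB3, a pseudokinase that binds AKT, had means of 89.6, 55.9 and 209 CPM and was called lower at 7 days (-0.68, edgeR adjusted p 0.00088) and higher at 28 days (1.22, edgeR adjusted p 9.66e-06). EIF4EBP1, the translation repressor controlled by mTORC1, was at 70.2, 25.7 and 70.1 CPM, close to the course of IRS1 and IRS2. The gluconeogenic genes G6PC1 and PCK1, and PPARGC1A and KLF15, classic liver targets, had too few counts to be tested. INSR, IRS1 and RICTOR of this group are also counted among the regulators below.

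Cell-cycle and death genes differed gene by gene. Of 12 tested cell-cycle and DNA-damage targets, 7 were called higher and 3 lower at 7 days (median 1.05), and 7 higher and 4 lower at 28 days (median 0.34). This list was not split by whether FOXO proteins raise or lower a gene. It includes CCND1 (454, 159 and 279 CPM in untreated WT, DTC and DTEC) and FOXM1 (290, 75 and 134 CPM), named after their values had been seen. CDKN2B, an inhibitor of CDK4 and CDK6, was high at both times (9.20, 136 and 74.6 CPM, log2 fold change 3.89 with edgeR adjusted p 1.04e-11 and 3.02 with edgeR adjusted p 2.02e-10). CDKN1A, the CDK inhibitor p21, was at 8.78, 10.1 and 9.84 CPM in untreated WT, at 57.3, 56.7 and 61.0 CPM in DTC and at 6.46, 5.42 and 5.19 CPM in DTEC, so that DTEC lay under untreated WT (-0.75, edgeR adjusted p 8.6e-05). GADD45A, a growth-arrest gene of the DNA damage response, ran alongside it at 40.4, 190 and 26.9 CPM. RBL2, the pocket protein p130, instead went on rising, from 26.3 to 63.6 to 93.2 CPM. CDKN1A and GADD45A are also well-known p53 targets.

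Of the 6 tested cell-death targets, 5 were called higher and 0 lower at 7 days (median 1.18) and 4 higher and 0 lower at 28 days (median 0.44). BCL2L11, which encodes the BH3-only protein BIM, had means of 34.4, 54.1 and 44.5 CPM, with log2 fold changes of 0.65 (edgeR adjusted p 6.33e-05) and 0.37 (edgeR adjusted p 0.00804). PMAIP1, another BH3-only gene, was at 17.0, 42.5 and 19.8 CPM and was called only at 7 days (1.32, edgeR adjusted p 5.71e-07), with a change of -1.11 (edgeR adjusted p 7e-06) between the times. Of the 9 oxidative-stress targets, 1 was called higher and 2 lower at 7 days (median 0.15), and 3 higher and 0 lower at 28 days (median 0.15). The 7-day counts moved with the setting: 5 higher and 1 lower with library totals, 4 and 2 with upper-quartile scaling, and 3 and 3 without DTC replicate 1. CAT, which encodes catalase, was at 55.6, 37.3 and 131 CPM and was called lower at 7 days (-0.58, edgeR adjusted p 0.000107) and higher at 28 days (1.24, edgeR adjusted p 1.93e-07), while SOD2, which was not called at either time, was at 140, 123 and 130 CPM. The fall of CAT at 7 days missed the threshold with library totals (-0.22, edgeR adjusted p 0.0556).

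**Figure D5:**
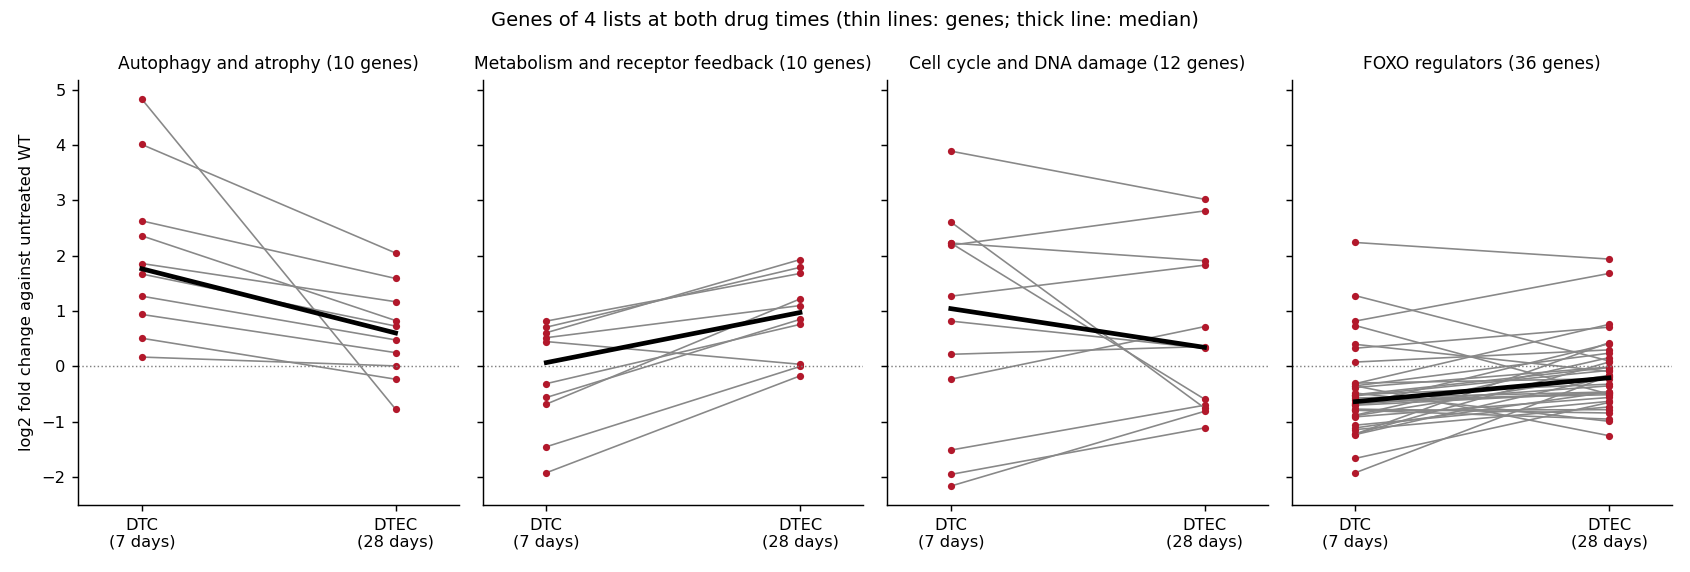
Log2 fold change against untreated WT of each tested gene of 4 lists at 7 days (DTC) and 28 days (DTEC), with thin lines joining the 2 values of a gene and a thick line for the list's median. The medians went from 1.77 to 0.60 for autophagy and atrophy targets, from 0.07 to 0.97 for metabolism and receptor feedback, from 1.05 to 0.34 for cell-cycle targets and from -0.64 to -0.20 for regulators of FOXO; both values of a gene share the untreated WT libraries.

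The enzymes and adaptors that control FOXO proteins were mostly lower at 7 days. Of 36 such genes, 5 were called higher and 27 lower at 7 days (median -0.64), 6 higher and 16 lower at 28 days (median -0.20), and 19 higher and 6 lower from 7 to 28 days (median 0.36). With library totals the 7-day count of lower genes was 17 (over all settings 17 to 29). All genes compare with 33.3% called lower at 7 days and 26.3% at 28 days. The 5 genes called higher at 7 days were SGK1, SGK3, PIK3CD, PIK3R1 and INSR, listed here after their values had been seen, and over the settings their number was 4 to 7. SGK1, a kinase of the same group as AKT that also phosphorylates FOXO3, had the largest rise, at 21.2, 18.1 and 17.0 CPM in untreated WT, 91.4, 85 and 88.8 CPM in DTC and 63.7, 70.1 and 82.2 CPM in DTEC. It rose by 2.24 (SE 0.119, edgeR adjusted p 1.49e-09) at 7 days and by 1.94 (edgeR adjusted p 2.37e-08) at 28 days on the log2 scale. USP7, a deubiquitinase that acts on FOXO4, fell from 273 ± 21.3 CPM to 86.2 ± 23.4 CPM at 7 days (SD, n = 3; -1.66, edgeR adjusted p 3.39e-07) and stood at 174 ± 19.1 CPM at 28 days. PHLPP1, a phosphatase that inactivates AKT, was at 36.7, 15.8 and 49.6 CPM and was called lower at 7 days and higher at 28 days.

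The kinase genes AKT1 and AKT2 and the 14-3-3 family within this list were picked out after their values had been seen. AKT1 stood at 170, 99.1 and 94.7 CPM and AKT2 at 174, 92.6 and 118 CPM in untreated WT, DTC and DTEC, and both were called lower at 7 days (-0.77 with edgeR adjusted p 7.45e-06 and -0.91 with edgeR adjusted p 1.11e-05). Both were also called lower at 28 days (-0.84 with edgeR adjusted p 8.03e-06 and -0.56 with edgeR adjusted p 0.00133). All 7 genes of the 14-3-3 family in the list were called lower at 7 days, with log2 fold changes from -1.14 to -0.30, and 6 of them at 28 days. With library totals 3 of the 7 were called lower at 7 days and with upper-quartile scaling 4, the values running from -0.78 to 0.05 and from -0.85 to -0.01. The number was 5 without untreated WT replicate 1, and 6 or 7 under the other alternatives. At 28 days it was 6 with both scalings. SFN, the epithelial 14-3-3 sigma, fell furthest at 28 days, from 152 to 64.0 CPM (-1.25, edgeR adjusted p 1.77e-06).

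Without drug, the TDP1 knockout line differed from untreated WT in few of these genes. Of all tested genes 2.77% were called higher and 1.55% lower in KO, so that 64.1% of the calls were higher (78.8% with library totals). Leaving out any 1 of the 6 libraries took the 739 calls to between 321 and 426. Of the 10 genes, 2 were called higher, DEPP1 and BCL6, 0 were called lower and 8 neither, and the median log2 fold change was 0.08 against -0.01 over all genes. DEPP1 stood at 1.79, 1.55 and 2.02 CPM in KO (48 to 73 counts) against 0.843 to 1.02 CPM in untreated WT, a log2 fold change of 0.96 (95% interval 0.59 to 1.34, edgeR adjusted p 0.00606). The same untreated WT libraries served in the rise for which DEPP1 was chosen, so its test and call here are not independent of that choice. The KO level was 1.95 times untreated WT, whereas the DTC level was 29.7 times. BCL6 stood at 69.8, 74.6 and 71.4 CPM in KO against 45.1 to 47.1 CPM in untreated WT, a log2 fold change of 0.64 (95% interval 0.46 to 0.83, edgeR adjusted p 0.000702). Both calls held in all alternatives run, which reuse the same libraries. CITED2 was at 41.7, 42.1 and 40.1 CPM, above each untreated WT library, with a log2 fold change of 0.35 (95% interval 0.14 to 0.56) that missed the threshold (edgeR adjusted p 0.061) and passed it under 4 of 12 alternatives.

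The FOXO factors themselves were close to untreated WT in KO: FOXO3 at 175, 173 and 165 CPM (0.01, 95% interval -0.34 to 0.36), FOXO4 at 7.48, 6.73 and 6.75 CPM (0.12, 95% interval -0.19 to 0.42) and FOXO1 at 8.99, 7.57 and 6.39 CPM (0.29, 95% interval -0.19 to 0.76). TXNIP was at 92.7, 90.9 and 90.6 CPM, below each untreated WT library (-0.26, edgeR adjusted p 0.283), and IRS2 at 181, 179 and 168 CPM (0.05, 95% interval -0.18 to 0.27). PIK3IP1 had 7, 9 and 18 counts and SESN3 7, 2 and 2 counts, too few to place them. Of the 47 other FOXO targets, 3 were called higher and 0 lower in KO, the receptor genes INSR, ERBB2 and ERBB3. The count was 9 higher and 5 lower for the compared libraries alone, 5 and 2 with DESeq2, and 1 and 0 with any 1 of the 6 libraries left out. INSR stood at 18.5, 17.7 and 18.1 CPM against 6.89 to 9.14 CPM (1.12, SE 0.134, edgeR adjusted p 0.000318). ERBB2 (0.48, edgeR adjusted p 0.0259) and ERBB3 (0.43, edgeR adjusted p 0.0345) lost their calls when any 1 of the 6 libraries was left out, with adjusted p of 0.0541 to 0.167. SGK1 was higher too, at 32.2 ± 2.19 CPM against 18.8 ± 2.18 CPM (SD, n = 3), a log2 fold change of 0.78 (edgeR adjusted p 0.00168). Of the 36 regulators of FOXO, 2 were called higher in KO (INSR and SGK1), 1 lower and 33 neither, beside 2.77% and 1.55% of all genes. The lower one was the kinase gene MAPK8 (-0.41, edgeR adjusted p 0.0376), which lost its call under 8 of 12 alternatives.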

How the data were processed

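The authors deposited expected counts, estimated read numbers per gene that need not be whole and are not scaled to depth, for 12 libraries. Per the labels' protocols the libraries were made with the TruSeq Stranded mRNA kit and read as 101 bp pairs. Per the submitters' processing notes RSEM 1.3.1, Bowtie2 2.5.2, DESeq2 1.40.2 and GRCh38 were used, with no roles given; the annotation release and strand setting are not given in the sources used here.

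Counts were rounded and fitted in R 4.3.3 with edgeR 4.0.16: filterByExpr (17115 genes kept), TMM, 1 mean per group over all 12 libraries, robust quasi-likelihood tests, Benjamini-Hochberg adjustment. CPM uses TMM-scaled totals. Coordinates and exon lengths came from GENCODE 29 (GRCh38), promoters from RefSeq (GRCh38.p14). The fit was tested on simulated counts. The genes followed and the lists were chosen with earlier results of these data known. All 10 genes were named, plus, per list and comparison, at most 3 called genes with a mean of at least 10 CPM and the largest log2 fold change. Alternatives were DESeq2 1.42.0, library totals, upper-quartile scaling, no filter, the compared libraries alone, a replicate block and each library left out.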

Additional observations from a re-analysis of the deposited data

Results flagged for a closer look

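Of the 9 genes tested in drug, 6 changed by different amounts at 7 and at 28 days against the same untreated WT libraries, by the edgeR test of DTEC against DTC. Over all tested genes 28.8% were called higher and 26.6% lower in that comparison, so such calls were common. The difference in log2 fold change was 1.73 for IRS2, 1.22 for TXNIP, 1.19 for BCL6, 1.08 for FOXO3 and 0.73 for FOXO4, each higher at 28 days, and -0.94 for CITED2, the one gene of the 6 that was lower at 28 days. In each of the 6 genes all 3 DTEC libraries lay on one side of all 3 DTC libraries. The same libraries gave the calls, so this is no further support. The share of all genes separated in this way was not counted.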

How the results depend on the processing

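Over 12 alternatives per comparison the number of the 9 or 10 genes called was 6 to 7 at 7 days (6 as reported), 6 to 8 at 28 days (7), 6 from 7 to 28 days (6) and 2 to 4 in KO (2, with 4 for the compared libraries alone). The number of all genes called in KO, 739 as reported, was 1145 with DESeq2, 1146 with no count filter, 2656 for the compared libraries alone and 321 to 426 with 1 library left out. With the replicate number as a block it was 887 and 3 of the 10 genes were called, CITED2 (0.36, edgeR adjusted p 0.041) being the addition. Deviations from the group mean correlated weakly between same-numbered libraries (r -0.03 to 0.179 over 18 pairs, 4 above 0.1). Between libraries with different numbers r ran from -0.187 to 0.118 over 36 pairs, 2 above 0.1. Whether the numbers mark cultures handled together cannot be told from these values. Some directions turned. BCL6 at 7 days (-0.03) was 0.015 with DESeq2, 0.323 with library totals and 0.256 with upper-quartile scaling, the last pair being called, and ran from -0.046 to 0.049 with 1 library left out. With library totals ARRDC2, MLXIP and ARRDC4 at 7 days were 0.007, 0.024 and 0.036. With 1 library left out, SESN3 at 28 days ran from -0.072 to 0.457, FOXO1 between the times from -0.409 to 0.154, and in KO IRS2 from -0.044 to 0.162 and PIK3IP1 from -0.852 to 0.486, none of them called. Adding FOXO3B to FOXO3 was chosen after seeing the data and left its calls as they were. The cause of these shifts was not tested. Depth limits SESN3 in all groups and PIK3IP1 without drug, and 3 libraries per group from 1 flask limit every interval given here.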
